A study of Mus musculus with 8 samples.

Results

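The MHC class II presentation genes described here are 8 genes chosen by name from a table of 24918 entries: the invariant chain Cd74, the chains H2-Aa, H2-Ab1 and H2-Eb1, the peptide-loading chains H2-DMa and H2-DMb1, the transactivator Ciita and the protease Ctss. All 8 were found, at 1 entry each, and all 8 passed the filter on low values, which left 13269 entries for testing. RNA was sequenced from whole corneas of male mice aged 3 months on a C57BL/6J/FVB background, with 4 libraries of GRflox mice (GRloxP/loxP-PAX6+/+) and 4 of corneaGRKO littermates (GRloxP/loxP-PAX6Cre/+), numbered 1, 3, 4 and 5 in each group. Every animal in both groups carried the floxed glucocorticoid receptor gene, and corneaGRKO mice alone carried Cre, driven by the P0 promoter of Pax6 and aimed at the corneal epithelium, and what Cre itself does cannot be told apart from receptor loss. Each library is a pool of 4 to 6 corneas. The comparison asks how receptor loss in the epithelium changes class II transcripts of the whole cornea, and values are log2 normalized expression as deposited.

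MHC class II molecules display peptides from endocytosed proteins to CD4+ T cells and are made mainly by dendritic cells, macrophages and B cells. The alpha and beta chains assemble with the invariant chain, Ctss trims that chain to a short peptide in the endosome, and H2-DM exchanges the remaining peptide for antigen. Ciita does not bind DNA itself but acts through RFX, CREB and NF-Y proteins seated on the X and Y boxes of class II promoters, and interferon gamma induces it. In the cornea, cells carrying class II are known to be resident macrophages and dendritic cells, most of them near the limbus, while class II on corneal epithelium is known mainly from inflamed tissue. Glucocorticoids are known to lower class II expression in antigen-presenting cells.

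Promoter stretches of 4 members are shown because H2-Aa, H2-Eb1 and H2-DMb1 hold the Y-box letters TGATTGG at similar places, with the X-box letters GCAAC before them in H2-Aa and H2-Eb1, and Ctss holds neither. The sequences are the 150 bases before the transcription start, from RefSeq with build GRCm38.p6, and were matched by Entrez gene. Capitals mark TGATTGG (the Y box), GCAAC (the X-box core), a run shared by H2-Eb1 and H2-DMb1 and, in Ctss, the interferon-stimulated response element (ISRE). The H2-Aa stretch is chr17:34287824-34287973 on the minus strand, that of H2-Eb1 is chr17:34305717-34305866, that of H2-DMb1 is chr17:34153041-34153190 and that of Ctss is chr3:95526636-95526785, the last 3 on the plus strand.
H2-Aa: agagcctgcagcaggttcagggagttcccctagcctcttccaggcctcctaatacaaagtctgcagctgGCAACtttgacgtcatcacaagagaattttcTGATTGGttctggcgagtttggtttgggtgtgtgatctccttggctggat
H2-Eb1: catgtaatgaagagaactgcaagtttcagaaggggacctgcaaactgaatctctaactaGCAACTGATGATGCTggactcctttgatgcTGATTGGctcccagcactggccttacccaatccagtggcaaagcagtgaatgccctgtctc
H2-DMb1: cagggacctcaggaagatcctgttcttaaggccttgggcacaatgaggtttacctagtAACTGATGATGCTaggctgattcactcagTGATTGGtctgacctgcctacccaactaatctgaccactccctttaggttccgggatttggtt
Ctss: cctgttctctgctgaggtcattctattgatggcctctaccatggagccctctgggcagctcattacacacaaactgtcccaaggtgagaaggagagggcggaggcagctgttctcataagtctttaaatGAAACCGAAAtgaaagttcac

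The full Y box CTGATTGG began at position -51 in H2-Aa and -62 in H2-Eb1, counted from the transcription start, and 4.1% of 32851 promoter windows of 300 bases held it on either strand. H2-DMb1 held the shorter TGATTGG at -63, letters chosen after the promoters were read, which lie inside CTGATTGG, overlap ATTGG and occurred in 7.82% of the windows. GCAAC, also chosen after reading and found in 35.2% of windows, lay 26 bases before TGATTGG in H2-Aa and 25 bases before it in H2-Eb1. The longer core AGCAAC (14.8% of windows) was matched in H2-Eb1 alone among the member promoters held here. No promoter window of Cd74, H2-Ab1 or Ciita was read, so whether they hold any of these letters is unknown here. H2-Eb1 and H2-DMb1 shared a run of 13 bases, AACTGATGATGCT, that lay 15 and 16 bases before TGATTGG, and 3 of all windows held it, the remaining 1 being that of Slc39a10. In H2-Eb1 the run began at -89, inside GCAAC (from -91), and in H2-DMb1 it began at -92. The missing GCAAC therefore does not show that H2-DMb1 lacks an X box. The ISRE was matched in Ctss at -21 and occurred in 3.44% of windows, and ATTGG alone, the CCAAT letters bound by NF-Y, occurred in 37.4%. The GAS letters TTCNNNGAA, found in 8.3% of windows, had no match in these members' windows. H2-DMa has 2 annotated starts, and neither window held TGATTGG. Each match describes letters in a window and says nothing about binding.

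Nr3c1, the targeted receptor gene, had values of 11.07, 11.21, 11.28 and 11.34 in GRflox replicates 1, 3, 4 and 5 and of 10.61, 10.78, 10.83 and 10.78 in the corneaGRKO libraries. It fell by 0.47 on the log2 scale (SE 0.064, n = 4 per group, limma adjusted p = 0.00767), and the groups did not overlap. Whole cornea also holds stroma and endothelium, at which Cre was not aimed. Markers of the labelled tissue were high, with the corneal keratin Krt12 between 19.57 and 20.20. The stromal proteoglycan gene Kera, 1 of 7 tested corneal genes and the only one called, lay between 14.58 and 14.77 in GRflox and between 14.29 and 14.48 in corneaGRKO. It fell by 0.29 (SE 0.057, limma adjusted p = 0.0369), but the adjusted p was 0.111, 0.0949 or 0.12 when GRflox replicate 1, 3 or 5 was dropped, and 0.132 or 0.0534 when corneaGRKO replicate 3 or 4 was. With corneaGRKO replicates 1 and 4 both dropped it was 0.0969. Its part in the class II differences was not tested. Libraries differed in neighbouring eye tissue: the summed level of 5 photoreceptor genes was 10.11 in corneaGRKO replicate 4 and 8.62 in corneaGRKO replicate 1, against 7.74 to 7.84 in GRflox. Results are therefore also given without these libraries. The labels state more than 40000000 aligned reads a sample, and the depth of any single library is unknown.

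Of the 8 class II presentation genes, 4 rose in corneaGRKO corneas and 0 fell. Cd74, H2-Aa, H2-Ab1 and Ctss were higher by 0.30 to 0.61 on the log2 scale, while H2-Eb1, Ciita, H2-DMb1 and H2-DMa did not pass. The background was 1.85% of tested entries called at a limma adjusted p under 0.05, made up of 1.33% called higher and 0.52% called lower. Differences were above 0 for all 8 members, against 45.3% of tested entries, and their median was 0.33, against -0.01 over all tested entries. The groups did not overlap for the 4 that rose, with corneaGRKO higher, as held for 5.89% of tested entries.

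**Figure D1:**
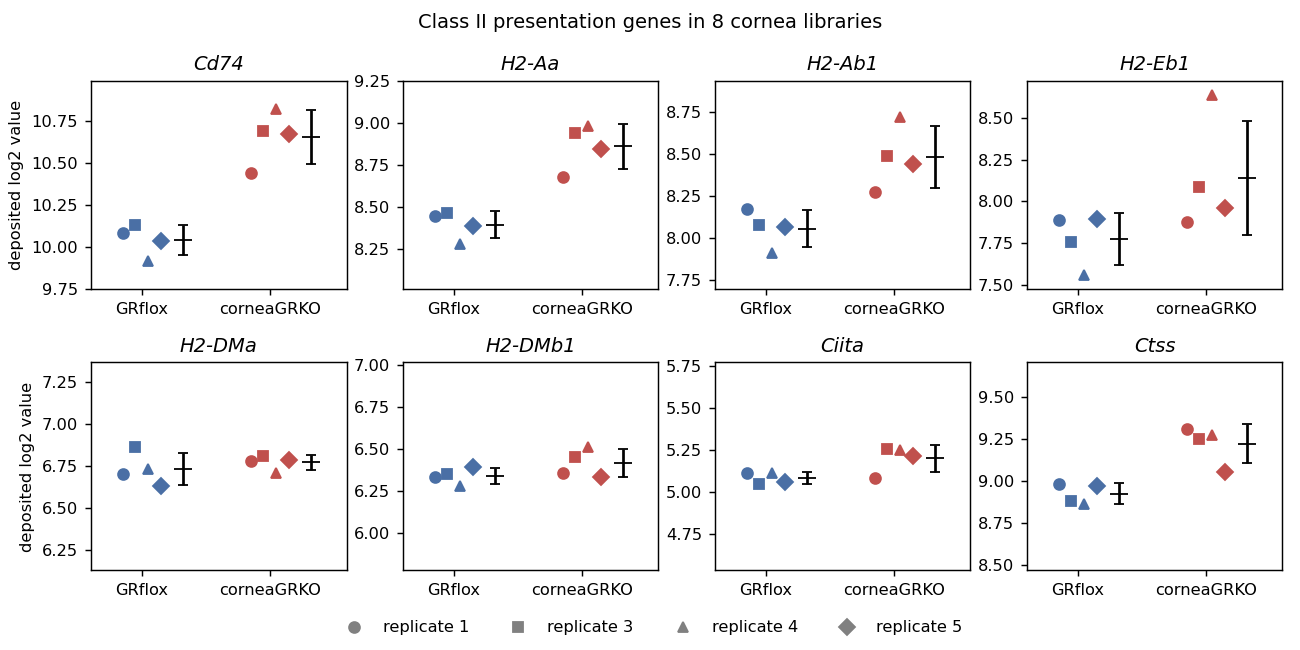
Deposited log2 value (vertical axis, the same span in each panel) of the 8 genes in each library, GRflox in blue and corneaGRKO in red, with symbols for replicate number and black bars for mean ± SD (n = 4). The groups are apart for Cd74, H2-Aa, H2-Ab1 and Ctss, and overlap for the other 4 genes, and corneaGRKO replicate 4 is the highest library for Cd74, H2-Aa, H2-Ab1, H2-Eb1 and H2-DMb1.

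Cd74 encodes the invariant chain, which guides class II dimers to the endosome and blocks their groove on the way. Its values were 10.08, 10.13, 9.92 and 10.03 in GRflox replicates 1, 3, 4 and 5. They were 10.44, 10.69, 10.82 and 10.67 in corneaGRKO replicates 1, 3, 4 and 5. The lowest corneaGRKO library thus stood above the highest GRflox library, and corneaGRKO replicate 1 was the lowest of its group. The mean went from 10.04 ± 0.0918 (SD, n = 4) to 10.66 ± 0.159, a difference of 0.61 (SE 0.0764, 95% interval 0.45 to 0.78, limma adjusted p = 0.00432), or 1.53 times on the linear scale. Cd74 ranked 64 of 13269 by size of increase. Its call held under each alternative, with adjusted p from 0.000163 to 0.0263 and differences from 0.56 to 0.69, leaving aside the values relative to Ptprc that are described below.

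H2-Aa and H2-Ab1 encode the alpha and beta chains of the I-A molecule, the class II dimer that C57BL/6 mice display. The mice here were of a mixed C57BL/6J/FVB background, and which class II alleles each pool carried was not tested. H2-Aa had values of 8.45, 8.46, 8.28 and 8.39 in GRflox and of 8.68, 8.94, 8.98 and 8.85 in corneaGRKO, in the order of replicates 1, 3, 4 and 5. It rose by 0.47 (SE 0.0689, 95% interval 0.31 to 0.62, limma adjusted p = 0.0103). H2-Ab1 had values of 8.17, 8.08, 7.91 and 8.06 in GRflox and of 8.27, 8.49, 8.72 and 8.44 in corneaGRKO. For both chains the groups did not overlap, and corneaGRKO replicate 1 was the lowest and replicate 4 the highest of the corneaGRKO libraries. H2-Ab1 rose by 0.43 (SE 0.0889, 95% interval 0.23 to 0.62, limma adjusted p = 0.0448). The call of H2-Ab1 was less stable than that of H2-Aa. With replicate number added to the fit, H2-Ab1 narrowly missed the threshold (limma adjusted p = 0.0519), while H2-Aa passed (0.0147). H2-Aa passed without any single library (limma adjusted p from 0.00298 to 0.0454), whereas H2-Ab1 missed the threshold without GRflox replicate 1 (0.077), 3 (0.102), 4 (0.0696) or 5 (0.13) and without corneaGRKO replicate 3 (0.134) or 5 (0.0831).

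H2-Eb1 encodes the beta chain of I-E, whose alpha chain is not made in C57BL/6 mice. Its values were 7.89, 7.76, 7.56 and 7.89 in GRflox and 7.88, 8.09, 8.63 and 7.96 in corneaGRKO, in the same replicate order. The groups overlapped, because corneaGRKO replicate 1 lay below GRflox replicates 1 and 5, while corneaGRKO replicate 4 stood far above every other library. The difference was 0.36 (SE 0.147, 95% interval 0.04 to 0.69, limma adjusted p = 0.249), and without corneaGRKO replicate 4 it was 0.20 (adjusted p = 0.367). The alpha-chain entry H2-Ea-ps, an annotated pseudogene, was at 1.87 to 1.93 in every library, far under the filter.

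Ctss encodes cathepsin S, the endosomal protease that makes the last cuts in the invariant chain. It had values of 8.98, 8.88, 8.86 and 8.97 in GRflox and of 9.31, 9.25, 9.28 and 9.05 in corneaGRKO. Here corneaGRKO replicate 5 was the lowest of its group and replicate 1 the highest, unlike the order seen for Cd74 and the I-A chains, and the groups again did not overlap. Ctss rose by 0.30 (SE 0.0596, 95% interval 0.17 to 0.43, limma adjusted p = 0.0379). Ctss missed the threshold when GRflox replicate 1 was left out (limma adjusted p = 0.0778), likewise GRflox replicate 3 (0.107), 4 (0.065) or 5 (0.0969) or corneaGRKO replicate 3 (0.128) or 4 (0.0634), and without corneaGRKO replicates 1 and 4 together (0.148).

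H2-DMa and H2-DMb1 encode the chains of H2-DM, the chaperone that swaps the invariant-chain fragment for antigenic peptide. H2-DMa had values of 6.70, 6.86, 6.73 and 6.63 in GRflox and of 6.78, 6.81, 6.71 and 6.79 in corneaGRKO. The corneaGRKO values lay within the GRflox range, with a difference of 0.04 (95% interval -0.07 to 0.15, limma adjusted p = 0.718). H2-DMb1 had values of 6.33, 6.35, 6.28 and 6.39 in GRflox and of 6.36, 6.45, 6.51 and 6.33 in corneaGRKO. These groups overlapped as well, and the difference was 0.07 (95% interval -0.03 to 0.17, limma adjusted p = 0.451). The upper bounds of both intervals lay below the lower bounds for Cd74, H2-Aa and H2-Ab1. H2-DMa and H2-DMb1 had lower values than those genes, and low values may be compressed on the deposited scale, which limits this comparison by size. H2-DMb2, a close copy of H2-DMb1, was at 3.42 to 3.54, and reads shared between the copies would make the H2-DMb1 values uncertain.

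Ciita, the class II transactivator, was the lowest member and lay just above the filter. Its values were 5.12, 5.05, 5.11 and 5.06 in GRflox and 5.09, 5.26, 5.25 and 5.21 in corneaGRKO. Replicates 3, 4 and 5 of corneaGRKO stood above all GRflox libraries, whereas corneaGRKO replicate 1 lay among them. The difference of 0.12 (SE 0.04, 95% interval 0.03 to 0.21) did not pass over all entries (limma adjusted p = 0.17). Leaving out corneaGRKO replicate 1 gave 0.16 (adjusted p = 0.0263), past the threshold, as did library weights, with 0.15 (adjusted p = 0.0167). Weakly expressed genes varied little on the deposited scale: the median SD over GRflox libraries was 0.044 at values of 5 to 6 and 0.0725 at 8 to 10, so a difference of Ciita cannot be set against that of Cd74 by size.

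**Figure D2:**
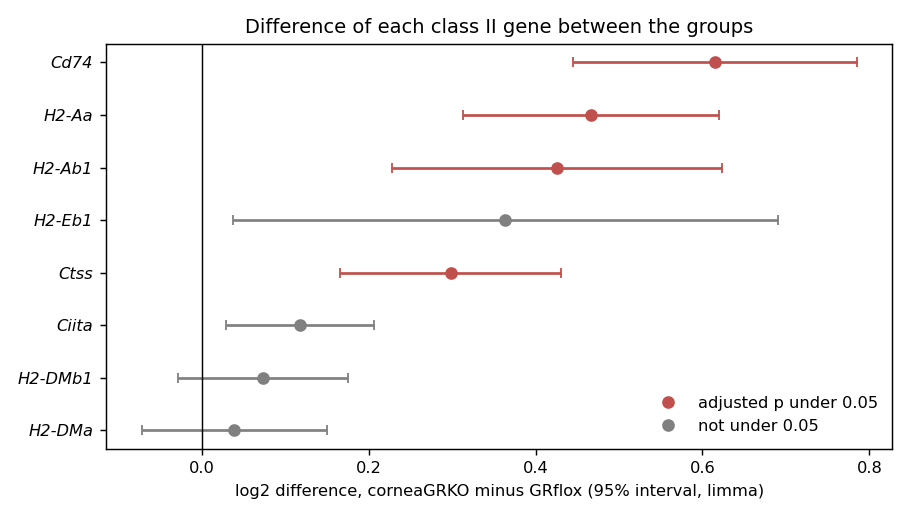
Log2 difference of each gene, corneaGRKO minus GRflox (horizontal axis), with unadjusted 95% intervals from limma, n = 4 per group; red points passed an adjusted p of 0.05 and grey points did not. Cd74 (0.61), H2-Aa (0.47), H2-Ab1 (0.43) and Ctss (0.30) are red, and the intervals of H2-DMb1 and H2-DMa span 0.

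The number of members past the threshold was 2 (Cd74 and H2-Aa) without GRflox replicate 1, 3, 4 or 5 or corneaGRKO replicate 3. It was 3 without corneaGRKO replicate 4 or 5 and 5 without corneaGRKO replicate 1. Without corneaGRKO replicates 1 and 4 together it was 3, with Cd74 at 0.64 (limma adjusted p = 0.00341), H2-Aa at 0.50 (0.00598) and H2-Ab1 at 0.41 (0.0232).

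Levels between genes were compared after dividing by exon length in kilobases, on the log2 scale. In GRflox, Cd74 stood at 9.54 per kb, Ctss at 8.48, H2-Aa at 8.22, H2-Ab1 at 7.78 and H2-Eb1 at 7.04. The loading chains and the transactivator were lower, with H2-DMb1 at 5.85, H2-DMa at 5.32 and Ciita at 2.04. This order was the same in 7 of 8 libraries. In the remaining 1, corneaGRKO replicate 5, H2-Aa stood above Ctss, and in corneaGRKO the means of these neighbours (8.69 and 8.78) differed by less than their SDs of 0.134 and 0.115. H2-DMb1 stood above H2-DMa only after division by their exon lengths, 1404 and 2668 nt. Before it the GRflox means were 6.34 and 6.73. Ciita was divided by 8225 nt, and low values may be compressed on the deposited scale.

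Within a library, the spacing between Cd74 and H2-Aa was narrowly held in GRflox and wider in corneaGRKO. Cd74 minus H2-Aa was 1.63, 1.67, 1.63 and 1.65 in GRflox and 1.76, 1.75, 1.84 and 1.82 in corneaGRKO, so that the groups did not overlap. The mean spacing widened by 0.15 (exact permutation test over the 8 libraries, two-sided, p = 0.0286, the smallest that 70 splits allow), from 1.65 ± 0.0164 (SD) to 1.79 ± 0.0459. Cd74 minus H2-Ab1 also widened in every corneaGRKO library, by 0.19 on average (exact permutation p = 0.0286). Adjusted over the 6 pairs of the 4 genes that rose, the exact permutation p of these pairs was 0.0857, so neither passed. An adjusted p under 0.05 needed most of the 6 pairs to reach the smallest possible p, so this outcome decides little. The spacing of H2-Aa and H2-Ab1 differed by 0.04 (exact permutation p = 0.429) and that of Cd74 and Ctss by 0.32 (exact permutation p = 0.0571, adjusted 0.114). Low values may be compressed on the deposited scale, which bears on any spacing between genes of unlike level.

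**Figure D3:**
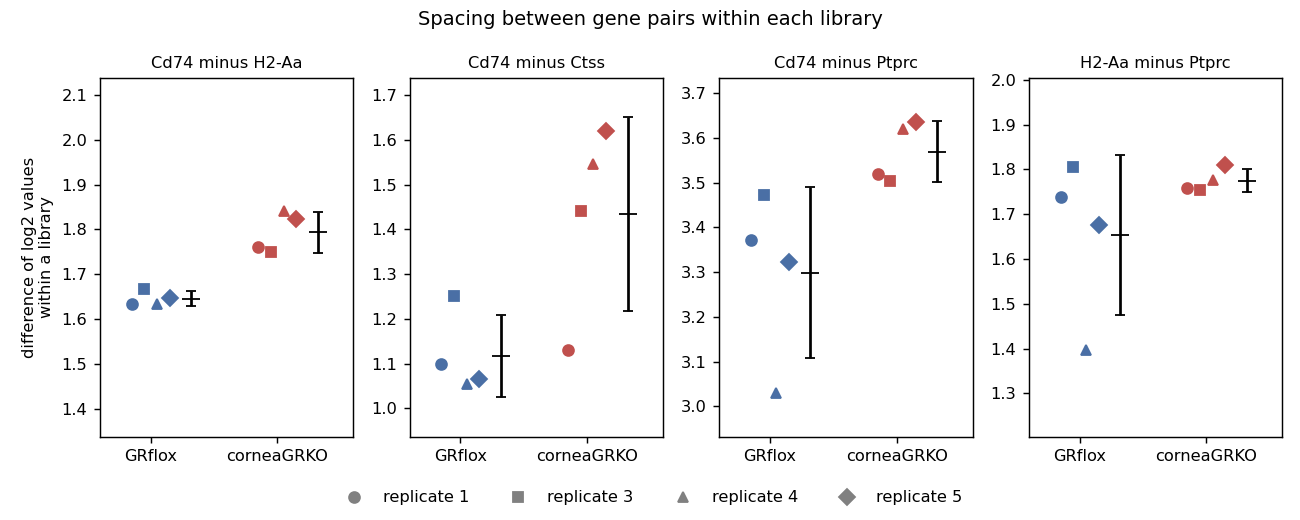
Difference between the log2 values of 2 genes within each library (vertical axis, the same span in each panel), GRflox in blue and corneaGRKO in red, black bars for mean ± SD (n = 4). Cd74 minus H2-Aa lies at 1.63 to 1.67 in GRflox and 1.75 to 1.84 in corneaGRKO, whereas H2-Aa minus Ptprc overlaps between the groups and is lowest in GRflox replicate 4 (1.40).

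Genes that act before or beside the class II molecules were read from fixed lists. Ifng, the gene of interferon gamma, which induces Ciita, was listed at 0 in every library, and the receptor gene Ifngr1 differed by 0.11 (limma adjusted p = 0.262). The median over 8 tested genes of the interferon-gamma route to Ciita was 0.07.

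Of 7 tested class II promoter-binding factors, 0 rose and 0 fell by limma, and 0 had an unadjusted p under 0.05. Nfyb, a subunit of the Y-box factor NF-Y, had a difference of -0.07 (limma adjusted p = 0.475) and Rfxank, a subunit of the X-box factor RFX, of -0.06 (adjusted p = 0.548). Of 11 tested endosomal proteases and traffic genes, 0 passed by limma and 2 had an unadjusted p under 0.05. Those were Sppl2a, the membrane protease that cleaves the last stub of the invariant chain (0.11, limma adjusted p = 0.155), and Ctsz, a cathepsin (0.18, adjusted p = 0.291). Sppl2a passed with library weights (0.0318). The medians of these 2 lists were -0.01 and 0.05. Small unadjusted p-values were common among all entries: H2-Eb1, at an unadjusted limma p of 0.0324, ranked 1723 of 13269 by p. Counts of them in a list are therefore not read as a result about that list.

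Of 7 co-stimulation and checkpoint ligands, 3 were tested, 0 passed by limma and 1 had an unadjusted p under 0.05. Cd40, the receptor through which T cells license antigen-presenting cells, had values of 7.60, 7.75, 7.64 and 7.74 in GRflox and of 7.53, 7.41, 7.36 and 7.50 in corneaGRKO. Every corneaGRKO library was thus below every GRflox library, opposite in sign to the class II members, and the difference was -0.23 (SE 0.052, limma adjusted p = 0.054). Leaving out corneaGRKO replicate 1 (0.0316) or using library weights (0.00951) brought it past the threshold. Cd274, which encodes the checkpoint ligand PD-L1, differed by 0.13 (adjusted p = 0.34), while Cd80, Cd86 and Cd83 lay under the filter, at 4.76 to 5.02.

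The class II genes lie on chromosome 17 among genes with no part in presentation, and 22 such neighbours from a fixed list were all tested. Of them 0 passed by limma, while 6, all lower in corneaGRKO, had an unadjusted p under 0.05, which was common among all entries. A difference above 0 was found for 5 of 22, against 45.3% of tested entries. Their median was -0.05. Rnf5, a ubiquitin ligase of the endoplasmic reticulum, had a difference of -0.14 (limma adjusted p = 0.202) and Col11a2, a collagen gene, of -0.11 (adjusted p = 0.218). Library weights called 6 of the 22, 1 of them higher. Cd74 lies on chromosome 18, Ciita on chromosome 16 and Ctss on chromosome 3.

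Markers of leukocytes moved with the class II genes. In bulk tissue, more cells of a type and more RNA per cell cannot be told apart. Of 11 tested macrophage and monocyte markers, 4 rose and 0 fell, against 1.33% and 0.52% of all tested entries. All 11 differences were above 0, against 45.3% of tested entries, and their median was 0.26. Ptprc, the pan-leukocyte antigen CD45, had values of 6.71, 6.66, 6.89 and 6.71 in GRflox and of 6.92, 7.19, 7.20 and 7.04 in corneaGRKO, and rose by 0.34 (SE 0.0704, limma adjusted p = 0.0426). Csf1r, Mrc1 and Cx3cr1, receptors carried by tissue macrophages, rose by 0.40, 0.44 and 0.26. The summed level of the 12 markers in the table ran from 13.47 to 13.68 in GRflox and from 13.53 to 13.84 in corneaGRKO, and none was at 0. Itgam alone, at 13.09 to 13.39 over all libraries, made up most of that sum. Its groups overlapped, with a difference of 0.10 (limma adjusted p = 0.51). The count of macrophage calls was 0 without GRflox replicate 1, 3 or 5 or corneaGRKO replicate 3 or 5 and with quantile normalization, 2 without GRflox replicate 4, and 8 without corneaGRKO replicate 1.

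Among 10 dendritic and Langerhans cell markers, Itgax, which encodes CD11c, was the only one above the filter, with values of 5.34, 5.36, 5.40 and 5.42 in GRflox and of 5.49, 5.55, 5.69 and 5.54 in corneaGRKO. Its groups did not overlap, but the difference of 0.18 (SE 0.042) did not pass, at a limma adjusted p = 0.059. Leaving out corneaGRKO replicate 1 (0.0307) or using library weights (0.00917) changed that. The Langerhans cell gene Cd207 was at 0.33 to 0.36 and the migration receptor gene Ccr7 at 0.88 to 0.91. B-cell genes were low as well, with Ms4a1 below 0 and Cd79b, the highest, at 4.16 to 4.25, and the T-cell gene Cd3e was at 1.45 to 1.53. The summed levels were 6.89 to 6.93 in GRflox and 6.98 to 7.06 in corneaGRKO for the dendritic list, 4.55 to 4.60 and 4.53 to 4.56 for the B-cell list, and 4.12 to 4.16 and 4.17 to 4.27 for the T-cell list.

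Each library was also set against its own Ptprc value. This subtracts 1 number per library from every gene, so the spacings between members stay as they were, and the median difference of all tested entries moved to -0.35. The differences are given without a test, since that shift sets their adjusted p-values. Relative to Ptprc, Cd74 had a difference of 0.27, with values of 3.37, 3.47, 3.03 and 3.32 above Ptprc in GRflox and of 3.52, 3.50, 3.62 and 3.64 in corneaGRKO. For Cd74 the groups did not overlap, though 3.47 and 3.50 lay close. The difference was 0.12 for H2-Aa, 0.08 for H2-Ab1, 0.02 for H2-Eb1, -0.05 for Ctss, -0.23 for Ciita, -0.27 for H2-DMb1 and -0.31 for H2-DMa. Ptprc is a weaker signal than Cd74, and its own noise enters every value: GRflox replicate 4, the highest GRflox library for Ptprc, gave the lowest value of Cd74 relative to it.

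Markers of tissue next to the cornea also moved with the class II genes. The mean deviation of the 8 class II genes from their GRflox means was 0.18, 0.33, 0.44 and 0.24 in corneaGRKO replicates 1, 3, 4 and 5, and lay between -0.086 and 0.048 in GRflox. In the same replicate order the 11 macrophage markers were at 0.12, 0.28, 0.44 and 0.24, the 6 tested conjunctival genes at 0.40, 0.52, 1.08 and 0.43, the 4 tested pigment-cell genes at 0.37, 0.23, 0.57 and 0.17, and the 3 tested photoreceptor genes at 0.79, 0.24, 2.15 and 0.12. All of these lists were highest in corneaGRKO replicate 4. In corneaGRKO replicate 1 the photoreceptor and pigment lists were second in height. The conjunctival list, like the class II and macrophage lists, was at its lowest corneaGRKO value there. Of the 6 tested conjunctival genes 3, all of them keratin genes, rose and 0 fell, against 1.33% and 0.52% of all tested entries. Krt8 (0.56) passed without any single library. With single libraries left out, Krt19 (0.79) missed the threshold in 3 of 8 fits and Krt13 (0.54) in 6. Agr2, also tested, differed by 0.02 (limma adjusted p = 0.784). Of the 4 tested pigment-cell genes 1 rose, a count that ran from 0 to 2 when single libraries were left out, and of the 3 tested photoreceptor genes 0 passed, with 1 at an unadjusted p under 0.05. Summed levels ran from 15.29 to 15.65 in GRflox and 15.83 to 16.58 in corneaGRKO for the conjunctival list, from 10.58 to 10.70 and 10.79 to 11.15 for the pigment list, and from 7.74 to 7.84 and 7.92 to 10.11 for the photoreceptor list, and no marker was at 0 in the files, though the mucin gene Muc5ac was at only 1.92 to 1.99. The part of leukocyte number, conjunctiva and pigmented tissue in the class II differences was not tested.

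**Figure D4:**
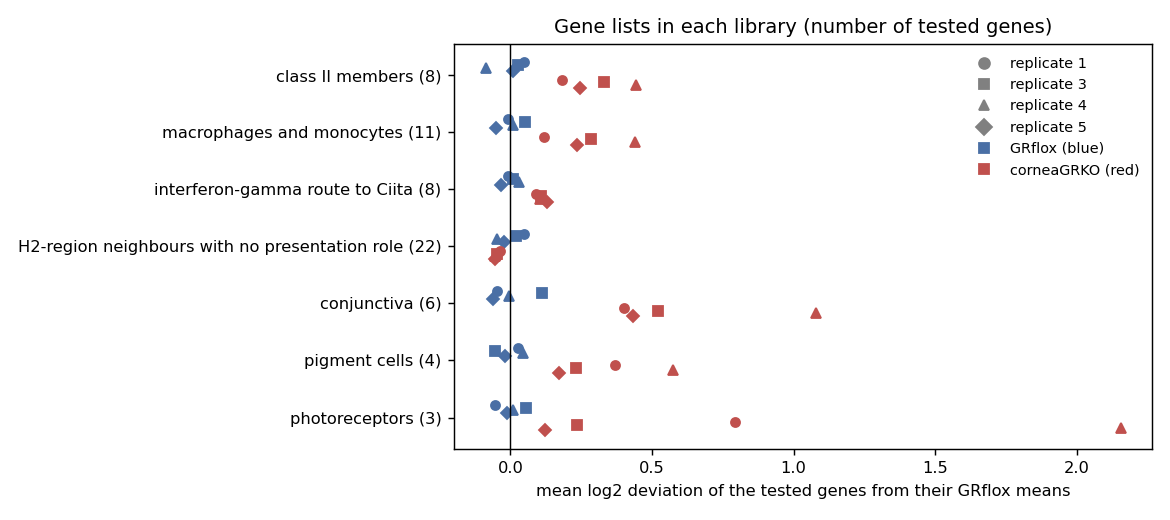
Mean log2 deviation of the tested genes of each list from their GRflox means (horizontal axis) in every library, GRflox in blue and corneaGRKO in red, with symbols for replicate number and the number of tested genes in brackets. Class II and macrophage genes sit at 0.12 to 0.44 in corneaGRKO, the H2-region neighbours sit slightly below 0, and corneaGRKO replicate 4 is far to the right for the photoreceptor list (2.15).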

How the data were processed

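The deposited table holds log2 normalized expression values made by the authors, 1 value per gene entry and library. Per the submitters' processing notes, the tools were Bowtie2, HTSeq and DESeq2; their versions are not given in the sources used here. How the values were transformed is not stated; low values vary little, and the build is mm9 in the notes and mm10 in the labels' extraction protocol. The table held 0 value columns beyond the 8 libraries. Per the labels, sequencing gave paired reads of 75 nt, and groups and replicate numbers came from sample titles. Since every library is its own pool, p-values reflect how much pools vary.

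The test was limma 3.58.1 in R 4.3.3 on entries whose mean was 5 or more on the log2 scale (trended variance, a single group term, two-sided, Benjamini-Hochberg adjustment over all 13269 tested entries, threshold 0.05). The fit was tested on simulated data. No count model was applied to these values. A total of 5382 entries were 0 in every library. No library repeated another, as the closest pair still differed by a median of 0.0427. Exon lengths are unions of GENCODE M21 exons.

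Members and lists were chosen with earlier results of these data known. Named genes are the members, Nr3c1, Ptprc and, from each list, those past the threshold (at most 5) or else the 2 with the smallest p. Ifngr1, H2-Ea-ps, H2-DMb2, Cd80, Cd86, Cd83, Cd207, Ccr7, Ms4a1, Cd79b, Cd3e, Krt12, Muc5ac, Agr2, Itgam and Ifng were chosen after their values were seen. Of the listed genes, Trac had no match. A few results on listed genes are left out. The 17 alternatives listed at the outset were the replicate block, no filter, a mean of at least 7, centring on the median, quantile normalization, 16 added on the linear scale, no trend, library weights, each library left out in turn and values relative to Ptprc. Leaving out corneaGRKO replicates 1 and 4 together was added after seeing the data.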

Additional observations from a re-analysis of the deposited data

Results flagged for a closer look

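Of 60 groups of 4 libraries checked over 30 named genes, 2 held a library far from its 3 companions, where chance flags about 1 in 20. Nfyb, a subunit of NF-Y, was 9.96 in corneaGRKO replicate 4 and 9.87 in the other 3 corneaGRKO libraries. Rfxank, a subunit of RFX, was 9.43 in corneaGRKO replicate 1 and 9.27 to 9.29 in the others of its group. No class II member was flagged in this way.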

How the results depend on the processing

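The differences of Cd74, H2-Aa, H2-Ab1 and H2-Eb1 kept their direction under all 18 alternatives, and the call of Cd74 held under each not scaled to Ptprc. Relative to Ptprc, where a shift of all entries sets the adjusted p-values, H2-Aa (0.12) and H2-Ab1 (0.081) did not pass, and H2-DMa (-0.31), H2-DMb1 (-0.27), Ciita (-0.23) and Ctss (-0.047) changed sign, which follows from subtracting a gene that rose by 0.34. Ciita passed with library weights (0.15), and Ctss did not without corneaGRKO replicates 1 and 4 (0.23). With single libraries left out, differences ran from 0.56 to 0.69 for Cd74, 0.43 to 0.53 for H2-Aa, 0.35 to 0.50 for H2-Ab1, 0.27 to 0.35 for Ctss and 0.10 to 0.16 for Ciita. Called members ran from 2 to 5, called macrophage genes from 0 to 8, interferon-gamma route genes from 0 to 1, co-stimulation genes from 0 to 1, and all called entries from 68 to 574, against 245.

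Replicate numbers gave no clear pairing of the libraries. Deviations from the group means correlated at 0.51, -0.28, 0.26 and 0.06 for numbers 1, 3, 4 and 5. GRflox replicate 3 correlated best with corneaGRKO replicate 1 (0.24), and these few correlations cannot exclude a pairing. With the replicate block 663 entries passed, H2-Ab1 narrowly did not (0.43, adjusted p = 0.0519), and Cd40 (adjusted p = 0.0401) and Itgax (0.0304) did. With library weights 1980 entries passed, 973 of them higher, along with 7 macrophage genes, 6 H2-region neighbours, 1 endosomal gene and 1 co-stimulation gene. Quantile normalization left 0 macrophage genes. For these the cause was not tested. Ciita, H2-DMa and H2-DMb1 fell under the filter at a mean of 7, so that setting gave them no value. Unknown depth and compressed low values limit what can be read from Ciita and the dendritic markers.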
